A study of Mus musculus with 6 samples.

Results

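Imprinted genes are read from only one of the parental copies of a chromosome, and many of them set how fast cells and tissues grow. This account follows 10 of them in muscle stem cells, *H19*, *Igf2*, *Meg3*, *Rian*, *Mirg*, *Dlk1*, *Peg3*, *Plagl1*, *Grb10* and *Igf2r*, a list set by symbol. They are 10 of 54115 genes with summed reads and 10 of the 17152 genes that were tested, so none was lost to the filter on low reads.

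RNA was sequenced from satellite cells, the resident stem cells of muscle fibres, isolated without culture from uninjured hindlimb muscles of mice on the C57BL/6J strain, 6 to 8 weeks old in the study's methods. There were 3 Pax7 WT libraries and 3 Pax7 KR libraries, each from 15 ng of RNA. Pax7 KR mice carry arginine in place of an acetylated lysine of PAX7, the transcription factor that marks these cells, introduced into the germline with CRISPR-Cas9, and Pax7 WT mice carry the unedited gene. In both genotypes the cells were sorted as positive for α7-integrin and CD34 and negative for CD31, CD11b, SCA-1 and CD45. All libraries share one strain label, so the parental copy behind a read cannot be read from these values. The comparison asks whether the loss of this acetylation site changes the RNA levels of imprinted growth genes.

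In the *H19*-*Igf2* domain, the non-coding RNA *H19* is made from the maternal copy and the fetal growth factor *Igf2* from the paternal copy. They draw on shared enhancers, and the insulator protein CTCF, bound to the unmethylated maternal copy, keeps those enhancers from *Igf2*. In the Dlk1-Meg3 domain, the maternal copy gives the long RNAs *Meg3*, *Rian* and *Mirg*, which carry snoRNAs and a large group of miRNAs, and the paternal copy gives *Dlk1*, a membrane protein related to Notch ligands. *H19* stays on in adult skeletal muscle after it is silenced in most other tissues.

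On build GRCm38, *H19* lies on the minus strand of chromosome 7 at 142575529 to 142578143, and *Igf2* lies 72.6 kb away at 142650766 to 142666816 on the same strand. The Dlk1-Meg3 genes follow each other on the plus strand of chromosome 12, *Dlk1* at 109452823 to 109463336, *Meg3* at 109541001 to 109571726, *Rian* at 109603940 to 109661716 and *Mirg* at 109729764 to 109749460. *Peg3* lies at 6703892 to 6730431 on chromosome 7, minus strand, *Plagl1* at 13060504 to 13131694 on chromosome 10, plus strand, *Grb10* at 11930508 to 12038683 on chromosome 11, minus strand, and *Igf2r* at 12682406 to 12769664 on chromosome 17, minus strand.

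5 of the 10 genes hold mature miRNAs of the RefSeq table on their own strand, 2 in *H19*, 2 in *Igf2*, 3 in *Meg3*, 6 in *Rian* and 26 in *Mirg*. The miRNAs of *H19* and *Igf2*, 1 each of *Meg3* and *Rian*, and the only seed that several of these miRNAs share are shown, because these small products are part of what the host RNAs are known for. Capitals mark the seed, bases 2 to 8, the stretch that pairs with target RNAs (RefSeq sequences, GRCm38.p6):
miR-675-5p (*H19*): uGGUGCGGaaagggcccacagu
miR-675-3p (*H19*): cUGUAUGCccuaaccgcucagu
miR-483-5p (*Igf2*): aAGACGGGagaagagaagggag
miR-483-3p (*Igf2*): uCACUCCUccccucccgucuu
miR-770-5p (*Meg3*): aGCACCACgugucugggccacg
miR-370-3p (*Rian*): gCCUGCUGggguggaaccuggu
miR-453 (*Mirg*): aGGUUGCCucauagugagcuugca
miR-496a-5p (*Mirg*): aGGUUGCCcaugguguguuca
miR-453 and miR-496a-5p, both in *Mirg*, had the seed GGUUGCC in common, and each of the other 37 seeds occurred once. The miRNAs themselves were not measured: the 22 miRNA genes annotated inside these hosts were listed with 0 reads in every library, as were the 13 snoRNA genes inside *Rian*. The libraries were not made for small RNA, so a 0 there gives no level of a miRNA.

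Libraries held 17822367 to 27908054 estimated reads. Satellite cell markers were high in both genotypes, with *Pax7* at 1410 to 1666 CPM (read counts scaled to library size with TMM) and *Myf5* at 402 to 456 CPM. The 9 genes of myogenic commitment summed to 955 to 1229 CPM, mostly through *Des* (417 to 522 CPM), *Cdh15* (411 to 524 CPM) and *Myod1* (107.5 to 167 CPM). *Myog* was at 1.09 to 6.37 CPM. The reads of *Pax7* were summed per gene and cannot show the codon change. Of markers of other cells, 10 immune genes summed to 17.1 CPM or less in every library and *Pdgfra*, which defines fibro-adipogenic progenitors, was at 1.51 to 3.81 CPM, although the 10 markers of those cells summed to 3076 to 3257 CPM through *Col3a1*, *Gsn* and *Dpt*. The 12 endothelial markers summed to 349 to 429 CPM in Pax7 WT and 379 to 525 CPM in Pax7 KR, with 11 of 12 higher in Pax7 KR, and the 5 erythroid markers, all 5 higher in Pax7 KR, summed to 190 to 376 CPM in Pax7 WT and 329 to 556 CPM in Pax7 KR. Of the smooth muscle and pericyte markers 10 of 10 were lower in Pax7 KR, with sums of 804 to 965 CPM in Pax7 WT and 775 to 853 CPM in Pax7 KR. These sums include *Des*, which is also in the commitment list. Of the myofibre markers 9 of 11 were lower, with sums of 295.4 to 326.4 CPM in Pax7 WT and 224.3 to 294.9 CPM in Pax7 KR. The 8 Schwann cell markers, 5 of them lower, summed to 327 to 370 CPM in Pax7 WT and 305 to 314 CPM in Pax7 KR, the 6 tenocyte markers to 39.5 to 81.5 CPM over all 6 libraries, and 10 cell cycle genes, 8 of them higher, to 99.5 to 103.7 CPM and 104.2 to 107.4 CPM. By edgeR 0 of the 119 tested genes of these checks were called, with 4 at an unadjusted p under 0.05, and by DESeq2 0 were called, while *Hba-a1*, *Hba-a2* and *Hbb-bs* passed the cut-off with a replicate block. A pair of libraries stood apart. The 15 immediate early genes, which answer cell stress and dissociation, summed to 27639 CPM in Pax7 WT replicate 2 and to 34806 to 45488 CPM in the other 5 libraries. The 4 Y-linked genes summed to 131 CPM in Pax7 KR replicate 2 and to 299 to 355 CPM in the other 5 libraries, while *Xist* was at 2.29 CPM or less in all 6. The part of these differences in the results was not tested. In bulk RNA, fewer cells of a type and less RNA per cell cannot be told apart.

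The 10 imprinted growth genes were expressed at very unequal levels, and none of them changed between the genotypes by the test. Per length, *Meg3* was the most abundant of them and *Dlk1* the least, with means of 1942 and 5.26 TPM over the 6 libraries. By edgeR's quasi-likelihood test, 0 of 10 passed the adjusted p cut-off of 0.1, as did 0% of all genes tested, and 1 of 10, *Grb10*, had an unadjusted p under 0.05, against 4.68% of all genes. DESeq2 called 0 of 10, against 0.175% of all genes, and gave 2 of 10 an unadjusted p under 0.05, against 3.98% of all genes. The CPM of the genotypes overlapped for every one of the 10, while 10.3% of all genes had groups that did not overlap. The count called was also 0 of 10 when either of the libraries that stood apart was left out. Of all genes, 4 of 16942 were called without Pax7 WT replicate 2 and 5 of 16844 without Pax7 KR replicate 2. The fold changes had a median of -0.0092 on the log2 scale, against -0.0037 for all genes, with 4 higher and 6 lower in Pax7 KR.

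Levels between genes were compared as TPM, which divides by transcript length. Mean TPM over the 6 libraries gave the order *Meg3*, *Peg3*, *Rian*, *Igf2*, *Grb10*, *Igf2r*, *Mirg*, *H19*, *Plagl1* and *Dlk1*, and *Meg3* ranked 80 of all 54115 genes while *Dlk1* ranked 10545. Neighbours in this order kept their order within each of the 6 libraries. Their ranges over libraries overlapped for 4 pairs, *Igf2* and *Grb10*, *Grb10* and *Igf2r*, *Mirg* and *H19*, and *H19* and *Plagl1*. The order rests on how reads were assigned to transcripts of unlike length. By mean CPM, without length, *Peg3* (rank 24 of 17152 tested genes) stood above *Meg3* (40), and *H19* (4604) above *Mirg* (7082). *Meg3* stood at 5.16 to 6.52 times *Rian*, 34.5 to 49.8 times *Mirg* and 246 to 579 times *Dlk1* in TPM, so the RNAs of one domain differed widely in level. *Igf2* stood at 3.00 to 5.63 times *H19*.

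**Figure D1:**
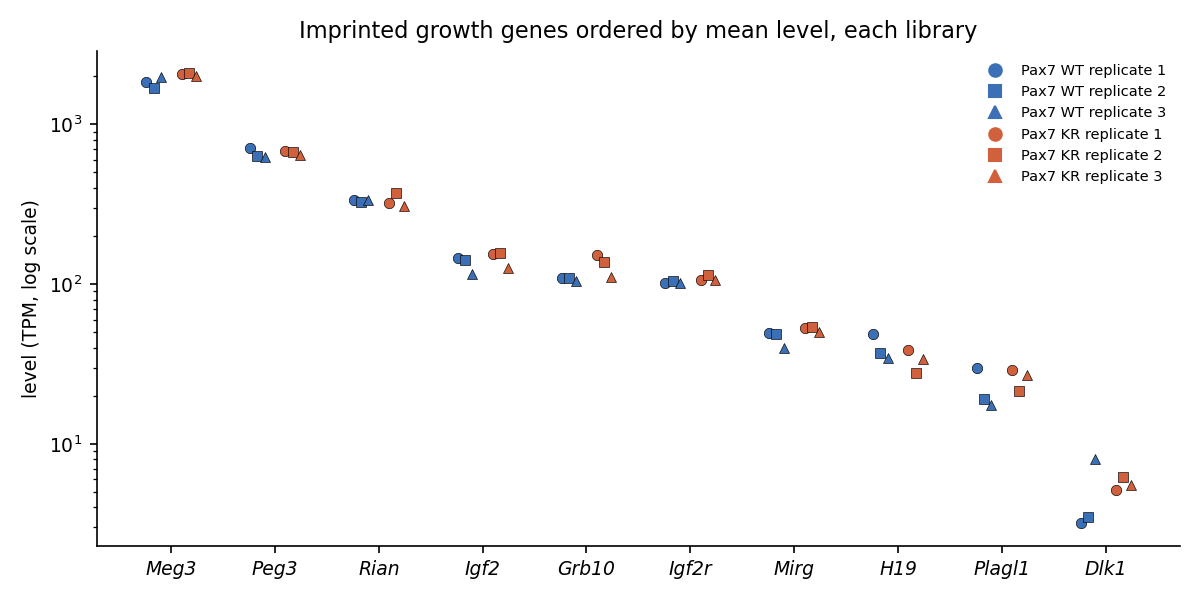
Level of each of the 10 genes as TPM on a log axis, with one point for each library and the genes ordered by their mean. The genes span from *Meg3*, at 1686 TPM or more in every library, to *Dlk1*, at 7.99 TPM or less. On this axis the genotypes lie near each other within each gene, although those of *Meg3*, *Mirg*, *Grb10* and *Igf2r* do not overlap.

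*H19* had 59.5, 48.9 and 44.2 CPM in the 3 Pax7 WT libraries and 47.8, 33.5 and 43.3 CPM in the 3 Pax7 KR libraries. The highest value was Pax7 WT replicate 1 and the lowest Pax7 KR replicate 2, and the other 4 libraries mixed. The log2 fold change was -0.30 ± 0.16 (SE, n = 3 per genotype, edgeR adjusted p = 0.992), with a 95% interval from -0.66 to 0.07. Without Pax7 KR replicate 2, the library with low Y-linked reads, it was -0.16 (edgeR adjusted p = 1.00), and without Pax7 WT replicate 1 it was -0.17 (edgeR adjusted p = 0.977).

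*Igf2* followed a similar course over the libraries, with 322, 285 and 244 CPM in Pax7 WT and 273, 239 and 269 CPM in Pax7 KR. The groups overlapped, with Pax7 WT replicate 1 again the highest. The log2 fold change was -0.12 ± 0.10 (SE, edgeR adjusted p = 0.996), with a 95% interval from -0.34 to 0.09. It was -0.02 without Pax7 WT replicate 1, -0.22 without Pax7 WT replicate 3 and -0.07 when Pax7 KR replicate 2 was left out (edgeR adjusted p of 0.937 or more). The sign depended on transcript length: with the average transcript length of each library as an offset, the fold change of *Igf2* was 0.05 (edgeR adjusted p = 0.996). Of the 31-base sequences of *Igf2* transcripts, 63.1% also occur in other genes, nearly all in the overlapping read-through gene *Gm49394*, which was listed at 0 reads, so its reads stayed with *Igf2* but their assignment is uncertain.

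Over the 6 libraries, the log2(CPM + 1) values of *H19* and *Igf2* had a Pearson r of 0.903 (exact permutation p = 0.0167, adjusted p = 0.0667 over 4 pairs) and a Spearman rho of 0.943 (exact permutation p = 0.0167, adjusted p = 0.0667). Without the 2 libraries farthest from the *H19* median, Pax7 WT replicate 1 and Pax7 KR replicate 2, r was 0.694 over 4 libraries. The log2 ratio of *Igf2* to *H19* reads was 2.48 ± 0.05 (SD, n = 3) in Pax7 WT and 2.66 ± 0.16 (SD, n = 3) in Pax7 KR, a difference of 0.18 (exact two-sided permutation p = 0.2, where 0.1 is the smallest p that 3 against 3 allows). The groups overlapped only through Pax7 KR replicate 1, at 2.52, which lay below Pax7 WT replicate 2, at 2.54. The deepest library, Pax7 WT replicate 1, was highest for both genes, so this relation leans on libraries that also differ in other ways. The 5 genes whose pattern over the libraries was most like that of *H19*, by Pearson r among 9520 genes, were *2510009E07Rik* (0.998), *Gm10177* (0.994), *Gpx4* (0.979), *Cdc34* (0.974) and *Ptgfrn* (0.972). Picked as the highest of 9520 values over 6 libraries, such r are high by selection and show no link with *H19*.

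*Meg3*, the lead RNA of the maternal Dlk1-Meg3 transcripts, had 1715, 1588 and 1831 CPM in Pax7 WT and 1821, 1887 and 1850 CPM in Pax7 KR. Pax7 WT replicates 1 and 2 were the lowest, but Pax7 WT replicate 3 lay inside the Pax7 KR range. The log2 fold change was 0.11 ± 0.07 (SE, edgeR adjusted p = 0.992), with a 95% interval from -0.04 to 0.27, so the interval holds no fold above 1.21. Without Pax7 WT replicate 2, the lowest library and the one with low immediate early genes, it was 0.06 (edgeR adjusted p = 0.908). Of the 31-base sequences of *Meg3*, 11.4% also occur in other genes, most often in *Gm26906* on the opposite strand, and whether the counting used strand is not given in the sources used here.

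*Rian*, which hosts snoRNAs and miRNAs, had 409, 370 and 361 CPM in Pax7 WT and 365, 390 and 374 CPM in Pax7 KR. The genotypes were interleaved, and the log2 fold change was -0.01 ± 0.07 (SE, edgeR adjusted p = 0.998). *Mirg*, the host of the largest group of miRNAs here, had 22.5, 24.0 and 20.2 CPM in Pax7 WT and 23.4, 26.8 and 24.7 CPM in Pax7 KR. Only Pax7 WT replicate 2 reached into the Pax7 KR range, and the log2 fold change was 0.17 ± 0.10 (SE, edgeR adjusted p = 0.992), or 0.10 without Pax7 WT replicate 3 (edgeR adjusted p = 0.973).

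*Dlk1*, the paternal gene of the domain, was the least abundant of the 10, with 63 to 140 reads in a library, and ranked 10533 of the 17152 genes tested by mean TPM. It had 2.90, 3.56 and 4.53 CPM in Pax7 WT and 4.07, 5.86 and 4.16 CPM in Pax7 KR. Pax7 KR replicate 2 was the highest and the others mixed, and the log2 fold change of 0.36 ± 0.25 (SE, edgeR adjusted p = 0.992) had a 95% interval from -0.18 to 0.91. The values allow any change of *Dlk1* inside that interval, and the smallest detectable change was not computed. Without Pax7 KR replicate 2 the fold change was 0.17 (edgeR adjusted p = 1.00), without Pax7 WT replicate 1 it was 0.21 and without Pax7 WT replicate 3 it was 0.55 (edgeR adjusted p = 0.991 and 0.937).

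The genotypes overlapped for all 4 ratios within a domain. By the exact test no ratio could pass the cut-off, as 3 against 3 libraries allow no p under 0.1. The log2 ratio of *Rian* to *Meg3* reads was -2.07, -2.10 and -2.34 in Pax7 WT and -2.32, -2.28 and -2.31 in Pax7 KR (exact two-sided permutation p = 0.4), so Pax7 WT replicate 3 lay with the Pax7 KR libraries. The differences for *Mirg* to *Meg3* (0.05, exact permutation p = 0.8) and *Dlk1* to *Meg3* (0.24, exact permutation p = 0.6) also lay within the spread, and with *Igf2* to *H19* all 4 ratios had an adjusted p of 0.8. Over the 6 libraries *Meg3* and *Rian*, on the log2(CPM + 1) scale, had a Pearson r of -0.0894 (exact permutation p = 0.876) and a Spearman rho of 0.0857 (exact permutation p = 0.919). For *Meg3* and *Mirg* the values were r = 0.136 (exact permutation p = 0.774) and rho = 0.486 (exact permutation p = 0.356), and for *Rian* and *Mirg* r = 0.316 (exact permutation p = 0.524) and rho = 0.429 (exact permutation p = 0.419), with all 3 pairs at an adjusted p of 0.559 or more. Without the 2 libraries farthest from the median, r over 4 libraries was 0.963, 0.768 and 0.903, so these values rest on those libraries, Pax7 WT replicate 1 among them in each pair.

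The sum of *Meg3*, *Rian* and *Mirg* ran from 1982 to 2212 CPM in Pax7 WT and from 2209 to 2304 CPM in Pax7 KR. The 5 genes most like this sum over the libraries, by Pearson r among 9518 genes, were *Acot9* (0.989), *Mill2* (0.982), *Ift140* (0.981), *Tmem67* (0.975) and *Wdsub1* (0.974). These r are likewise the highest of 9518 values over 6 libraries and show no link between the genes. Between the start of *Dlk1* and the end of *Mirg*, 297 kb of chromosome 12, 103 annotated genes were quantified, 66 of them miRNA genes and 23 snoRNA genes. Of these 103, 94 had no read in any library and 6 had a mean over 1 CPM, namely the 4 named here, *Gm26945* and *Gm37899*, the last 2 named because so few remained. Of the other genes of the wider Dlk1-Dio3 domain, *Begain* was at 3.45 to 5.08 CPM, *Dio3os*, antisense to the thyroid hormone deiodinase *Dio3*, at 0.96 to 4.77 CPM, *Dio3* at 0.18 to 0.84 CPM, and *Rtl1*, a gene derived from a retrotransposon, had 1 read in all.

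*Grb10*, an adaptor that dampens insulin and IGF receptor signalling, had the smallest p of the 10. It had 319, 326 and 301 CPM in Pax7 WT and 390, 357 and 322 CPM in Pax7 KR. Pax7 KR replicate 3 lay below Pax7 WT replicate 2, and the other 2 Pax7 KR libraries lay above all of Pax7 WT. The log2 fold change was 0.18 ± 0.07 (SE, edgeR adjusted p = 0.992), with a 95% interval of the fold from 1.01 to 1.26, and without Pax7 KR replicate 1 it was 0.11 (edgeR adjusted p = 0.999). *Igf2r*, the receptor that takes up IGF2 for breakdown, was the steadiest of the 10 at 543, 551 and 524 CPM in Pax7 WT and 514, 562 and 536 CPM in Pax7 KR. Its groups were interleaved, and the log2 fold change was -0.0039 ± 0.06 (SE, edgeR adjusted p = 0.998), with a 95% interval of the fold from 0.908 to 1.10.

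*Peg3*, a paternally expressed zinc finger gene also known as a marker of stem and progenitor cells in muscle, had 3328, 2994 and 2943 CPM in Pax7 WT and 2974, 2941 and 2929 CPM in Pax7 KR. Pax7 WT replicate 1 was the highest and the other 5 libraries lay close together, with a log2 fold change of -0.07 ± 0.08 (SE, edgeR adjusted p = 0.998). Without Pax7 WT replicate 1 it was -0.01 (edgeR adjusted p = 0.995). *Plagl1*, a zinc finger transcription factor that acts on other imprinted genes, had 69.6, 42.1 and 39.4 CPM in Pax7 WT and 50.3, 43.4 and 48.9 CPM in Pax7 KR. The other 2 Pax7 WT libraries lay below all of Pax7 KR, so Pax7 WT replicate 1 alone set the sign: the log2 fold change was -0.09 ± 0.25 (SE, edgeR adjusted p = 0.998), and without that library it was 0.22 (edgeR adjusted p = 0.977). Pax7 WT replicate 1 was the highest library for 5 of the 10 genes and Pax7 KR replicate 2 for 4.

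**Figure D2:**
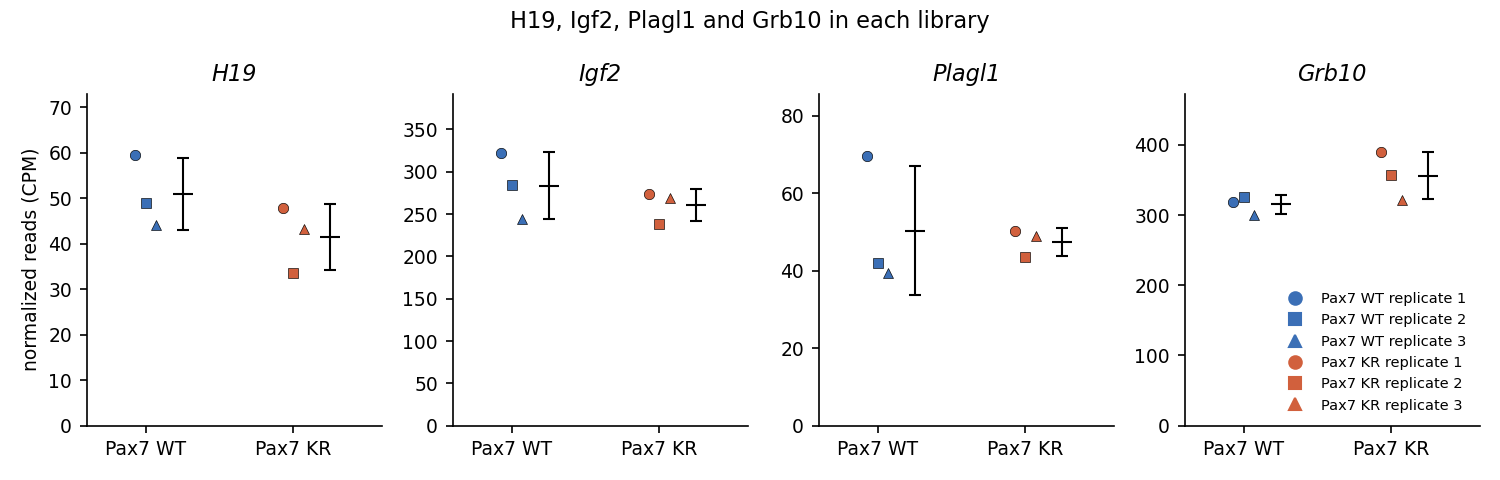
Normalized reads of *H19*, *Igf2*, *Plagl1* and *Grb10* on linear axes from 0, one point per library, with the mean and SD of each genotype (n = 3) beside the points. Pax7 WT replicate 1 is the highest point for *H19*, *Igf2* and *Plagl1*, and the genotypes overlap in all 4 panels.

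Grouped by the copy that is expressed, 3 of the 6 maternally expressed genes and 1 of the 4 paternally expressed genes were higher in Pax7 KR, with median log2 fold changes of 0.06 and -0.08. For 7 of the 10 genes the 95% interval of the fold change lay within 1.5-fold in both directions, and *H19*, *Dlk1* and *Plagl1* had wider intervals.

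**Figure D3:**
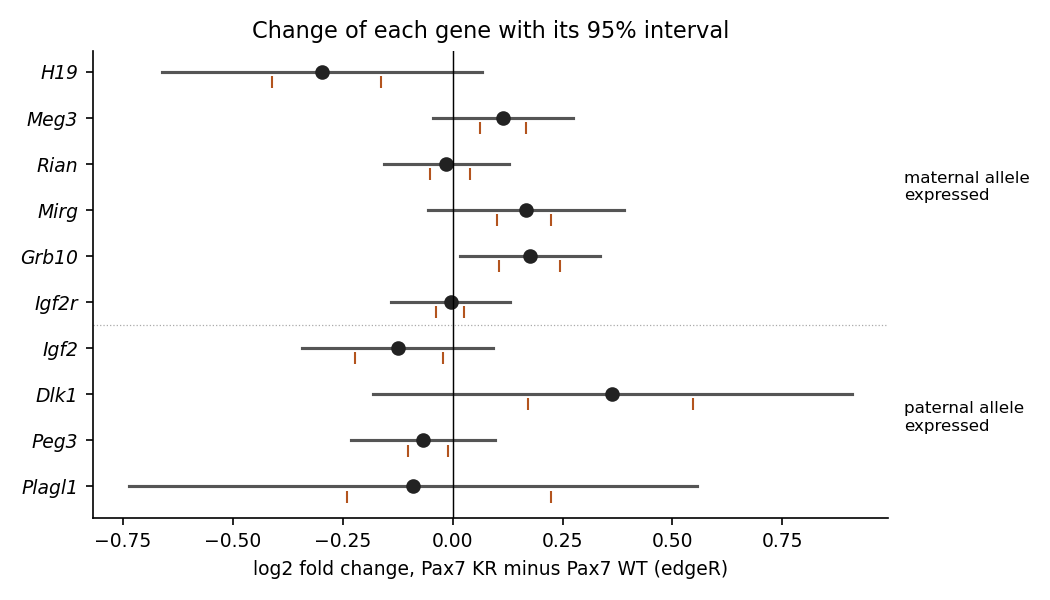
Log2 fold change of each gene, Pax7 KR minus Pax7 WT, with black points for the edgeR estimate, lines for its 95% interval, and orange ticks for the lowest and highest estimate when 1 library at a time is left out. Maternally expressed genes stand above the dotted line, and all intervals but that of *Grb10* include 0.

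On the TPM scale the genotypes did not overlap for 4 of the 10, *Meg3*, *Mirg*, *Grb10* and *Igf2r*, all higher in Pax7 KR, against 12.5% of all genes without overlap and 9.69% without overlap and higher in Pax7 KR. *Grb10* had 110, 110 and 105 TPM in Pax7 WT and 151, 138 and 111 TPM in Pax7 KR. TPM is not scaled by TMM, and 63.2% of all genes tested had a higher mean TPM in Pax7 KR, with a median difference of 0.05 on the log2(TPM + 1) scale. With TMM scaling and a transcript length offset, the log2 fold changes were 0.10 for *Meg3*, 0.12 for *Mirg*, 0.24 for *Grb10* and 0.01 for *Igf2r*, and the lowest edgeR adjusted p of these 4 was 0.962.

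Where each gene starts was read from the share of its reads on transcripts whose first base lies inside a RefSeq promoter window, 250 bases before to 50 after a start. Longer transcripts yield more reads per molecule, so these are shares of reads and not of molecules. The 14 windows of 300 bases cover 9 of the genes. *Igf2* and *Grb10* have several windows, and the window with most *Igf2* reads and both windows of *Grb10* are shown, because the use of alternative starts differs between tissues for both genes. In neurons *Grb10* is known to be read from the paternal copy, through starts downstream of the main one. Capitals mark CG, the base pair step that carries DNA methylation, written 5′ to 3′ on the minus strand of GRCm38.p6:
*Igf2*, chr7:142657447-142657746: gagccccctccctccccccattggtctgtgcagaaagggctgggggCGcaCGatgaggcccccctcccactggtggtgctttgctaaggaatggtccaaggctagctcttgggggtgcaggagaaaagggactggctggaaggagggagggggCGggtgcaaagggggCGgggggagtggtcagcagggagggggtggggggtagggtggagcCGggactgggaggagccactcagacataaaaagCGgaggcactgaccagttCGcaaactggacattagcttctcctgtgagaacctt
*Grb10* upstream, chr11:12037371-12037670: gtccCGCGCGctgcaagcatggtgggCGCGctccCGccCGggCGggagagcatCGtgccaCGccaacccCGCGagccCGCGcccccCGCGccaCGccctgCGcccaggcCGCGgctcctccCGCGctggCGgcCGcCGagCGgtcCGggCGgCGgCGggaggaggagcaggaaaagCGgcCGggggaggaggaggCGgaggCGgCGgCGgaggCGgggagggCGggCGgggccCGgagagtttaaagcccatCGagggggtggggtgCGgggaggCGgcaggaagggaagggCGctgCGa
*Grb10* downstream, chr11:12027922-12028221: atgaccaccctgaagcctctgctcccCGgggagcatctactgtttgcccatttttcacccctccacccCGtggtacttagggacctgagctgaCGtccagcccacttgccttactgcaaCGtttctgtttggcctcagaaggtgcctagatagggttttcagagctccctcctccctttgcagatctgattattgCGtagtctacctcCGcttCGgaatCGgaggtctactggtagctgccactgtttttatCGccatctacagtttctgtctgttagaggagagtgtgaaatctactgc
The upstream *Grb10* window held 45 CG, a number that 1.93% of 32851 promoter windows reached, the downstream one held 9, reached by 45.8%, and the *Igf2* window 7, reached by 52.1%. Over the 14 windows the median was 11.5 CG, against 7 over all windows. PAX7 binds DNA through a paired domain and a homeodomain, whose core letters are TAAT. On either strand TAAT occurred in 7 of the 14 windows and in 58.0% of all windows, and the palindromic pairs TAATNNATTA and TAATNNNATTA, which each contain TAAT, occurred in 0 of the 14, against 0.390% and 0.487% of all windows. At shares this low, 0 of 14 cannot show that the pairs are lacking. Sequence more than 250 bases before a start, where PAX7 may also bind, was not searched.

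The shown *Igf2* window held 80.1%, 80.8% and 80.2% of the gene's reads in Pax7 WT and 83.3%, 76.4% and 80.6% in Pax7 KR. The Pax7 WT values lay inside the Pax7 KR range. The transcript *Igf2-205*, which starts upstream outside any window, took a mean of 16.2%, and each of the other 3 windows 3.72% or less. For *Grb10* the upstream window held 93.2%, 88.2% and 84.3% in Pax7 WT and 90.9%, 87.9% and 92.1% in Pax7 KR, and the downstream one 1.54%, 5.52% and 9.66% in Pax7 WT and 1.72%, 4.11% and 0.944% in Pax7 KR. The downstream share varied most among the Pax7 WT libraries, and the groups overlapped.

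*Meg3* divided its reads between 2 windows, 39.6% to 43.4% on transcripts from the upstream one and 39.2% to 41.3% on the 14548-base transcript *Meg3-209* from the downstream one, in every library of both genotypes. Of *Mirg* reads 22.6% to 26.1% lay on transcripts that start in its RefSeq window. For *Rian* the share was 1.19%, 1.31% and 1.51% in Pax7 WT and 1.56%, 1.66% and 1.93% in Pax7 KR. These groups did not overlap (exact two-sided permutation p = 0.1, the smallest possible, not adjusted over the windows). *Rian-202*, which starts at 109646141 in the later part of the locus, took a mean of 60.1% of *Rian* reads, and *Mirg-207*, at 109747964 to 109749458, took 42.2% of *Mirg* reads, so for both RNAs most reads fell on transcripts that start outside that window. *Peg3*, *Plagl1* and *Igf2r* had 97.6% or more in a single window in every library, and *Dlk1* 0%, since its reads were assigned to transcripts that start further downstream. The *Peg3* share also did not overlap, at 99.90% to 99.91% in Pax7 WT and 99.85% to 99.87% in Pax7 KR (exact two-sided permutation p = 0.1, not adjusted).

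**Figure D4:**
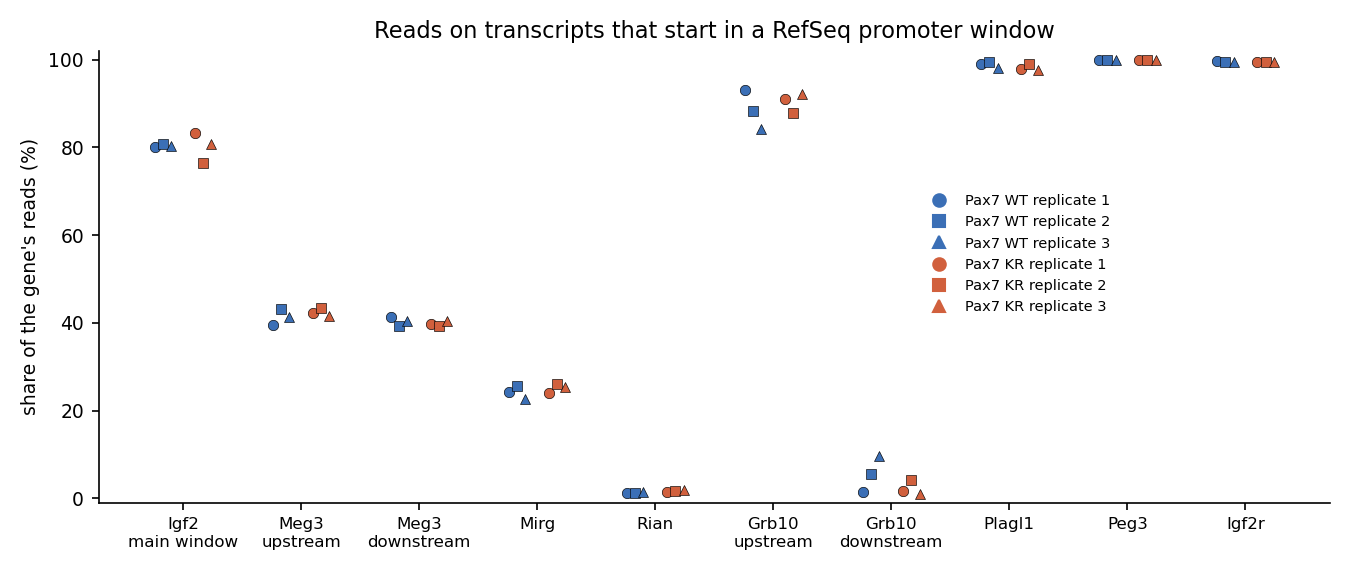
Share of each gene's estimated reads, in percent, on transcripts that start inside a RefSeq promoter window, one point per library. The shares differ between genes, with *Meg3* near 40% of reads in both windows. Shares of reads are not corrected for transcript length. Within a gene the genotypes lie close together on this axis, also for *Rian* and *Peg3*, whose values do not overlap. The spread is widest for the *Grb10* windows.

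The share of the leading transcript was compared for the 6 genes that have 2 or more transcripts with a mean share of 10% or more. For 5 of them the genotypes overlapped, with differences of 1.19 percentage points for *Igf2-201* (exact two-sided permutation p = 0.7), -0.47 for *Meg3-209* (exact permutation p = 0.6), -3.12 for *Rian-202* (exact permutation p = 0.3), -1.48 for *Mirg-207* (exact permutation p = 0.8) and 8.40 for *Dlk1-205* (exact permutation p = 1). *Peg3-201* held 83.8% ± 0.44 (SD, n = 3) of *Peg3* reads in Pax7 WT and 83.3% ± 0.25 (SD, n = 3) in Pax7 KR, without overlap but only -0.51 percentage points apart, at the smallest p the design allows (exact permutation p = 0.1, adjusted p = 0.6 over the 6 genes). *Dlk1-205* ranged from 10.8% to 80.1% within Pax7 WT, so the transcripts of this gene could not be separated at its depth. Without Pax7 WT replicate 1 the difference for *Rian-202* was -1.01 percentage points (exact permutation p = 0.4).

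The genes around the 10 were followed in lists for the IGF axis, other imprinted genes, the upkeep of imprints and the paralogs and partners of the proteins, beside those of the Dlk1-Dio3 domain. Of their 88 tested genes 0 passed the cut-off by edgeR and 0 by DESeq2, and 6 had an unadjusted edgeR p under 0.05. Of 21 genes of the IGF axis 15 were tested, 8 higher and 7 lower in Pax7 KR. Their median change was 0.01 on the log2 scale, and 1 had an unadjusted p under 0.05. That gene was *Igfbp6*, a secreted protein that binds IGF2 with preference, at 2.17, 2.43 and 4.14 CPM in Pax7 WT and 5.64, 6.87 and 3.92 CPM in Pax7 KR. Pax7 KR replicate 3 lay below Pax7 WT replicate 3, and the log2 fold change was 0.92 ± 0.30 (SE, edgeR adjusted p = 0.992). The most abundant gene of this list was *Igfbp5*, another IGF-binding protein, at 3015 to 3698 CPM. *Igf1r* and *Insr*, the receptors through which IGF2 acts, were at 198 to 274 CPM and 98.5 to 111 CPM, with edgeR adjusted p of 0.998 and 0.992.

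Of 49 other imprinted genes 40 were tested, 18 higher and 22 lower in Pax7 KR. Their median change was -0.03 on the log2 scale, and 4 had an unadjusted p under 0.05, against 4.68% of all genes. The groups did not overlap for 4 of these 40, against 10.3% of all genes. *Sgce*, a sarcoglycan of the muscle membrane, had a log2 fold change of 0.21 ± 0.08, *Usp29*, which neighbours *Peg3*, -0.29 ± 0.12, *Atp10a*, a lipid flippase, -0.19 ± 0.08, and *Zim1*, also beside *Peg3*, -0.17 ± 0.08 (SE, edgeR adjusted p = 0.992 for each). *Gnas*, the stimulatory G protein subunit, was the most abundant of the list and had 5921, 5558 and 5472 CPM in Pax7 WT and 5366, 5261 and 5095 CPM in Pax7 KR. All Pax7 KR libraries lay below all Pax7 WT libraries, yet the log2 fold change was -0.11 ± 0.08 (SE, edgeR adjusted p = 0.992). *Airn*, the antisense RNA that silences the paternal *Igf2r*, was at 53.4 to 62.1 CPM with a log2 fold change of 0.00036 (edgeR adjusted p = 1.00), and reads where it overlaps *Igf2r* may not be told apart without strand.

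**Figure D5:**
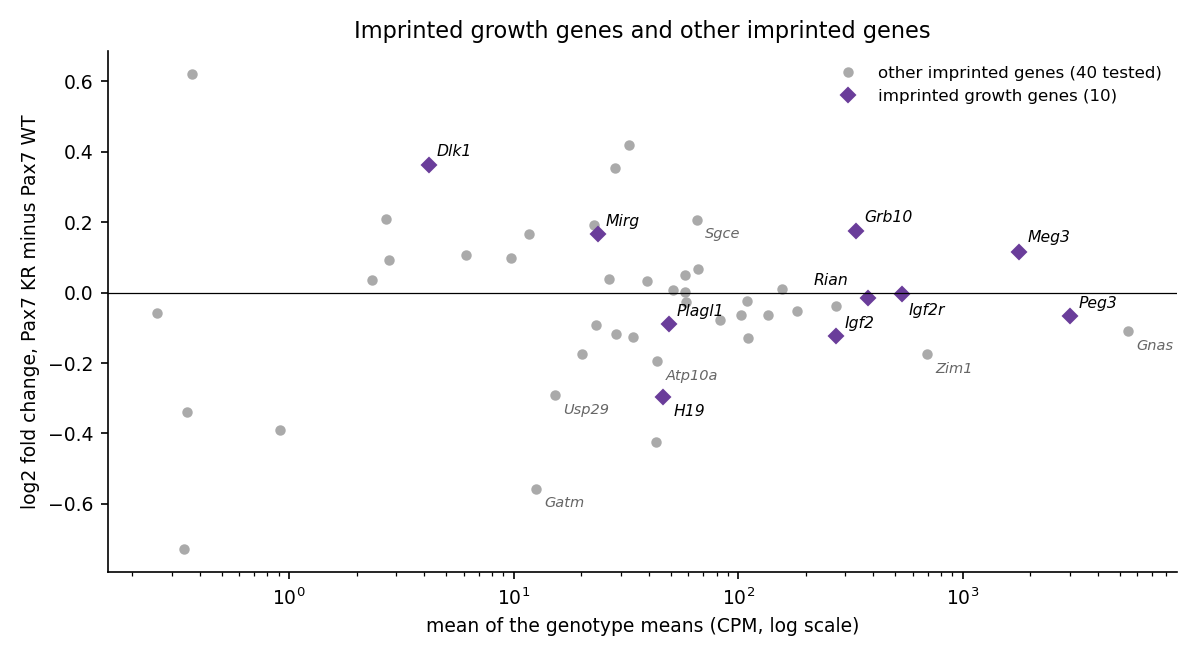
Log2 fold change, Pax7 KR minus Pax7 WT, against the mean CPM on a log axis for the 10 genes (purple diamonds) and 40 other imprinted genes (grey points). Both sets lie on either side of 0, and the highest and the lowest grey point both lie under 1 CPM.

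Of 23 genes that keep imprints or methylate DNA or histones 20 were tested, 12 higher and 8 lower in Pax7 KR. Their median change was 0.02 on the log2 scale, and 1 had an unadjusted p under 0.05. That was *Ezh1*, a histone methyltransferase of PRC2, with 155, 163 and 169 CPM in Pax7 WT and 176, 189 and 172 CPM in Pax7 KR. The groups did not overlap, and the log2 fold change was 0.14 ± 0.06 (SE, edgeR adjusted p = 0.992). *Zfp445* and *Trim28*, which protect methylated imprints, were among the most abundant at 185 to 198 CPM and 179 to 207 CPM, and the germline and early embryo factors *Dnmt3l*, *Dppa3* and *Ctcfl* had 0 reads. Of 12 paralogs and partners 10 were tested, 5 higher and 5 lower, and their median change was 0.0079 on the log2 scale with 0 unadjusted p under 0.05 by edgeR. *M6pr*, the other mannose 6-phosphate receptor beside *Igf2r*, was the most abundant of these at 140 to 159 CPM.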

How the data were processed

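For each library the authors ran Salmon (version 1.3.0) on transcripts of build GRCm38 and deposited the estimated counts, without normalization, next to TPM and effective lengths, for 3 Pax7 WT and 3 Pax7 KR libraries of freshly isolated satellite cells. Libraries were made with a directional kit, and the strand setting of the quantification is not given in the sources used here. The authors' table of their own DESeq2 (version 1.28.1) comparison, with mean normalized counts, log2 fold changes, standard errors and p-values, was not used.

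The deposited estimated counts were summed per gene and rounded. Of 140992 transcripts 139791 matched an earlier GENCODE release of the same build, and the rest held 0.606% of reads and were left out. A gene entered the test with at least 5 reads in at least 2 libraries. edgeR (version 4.0.16, TMM, quasi-likelihood, genotype only) was used, with Benjamini-Hochberg adjustment over 17152 genes and a cut-off of 0.1. Normalized values are CPM on TMM library sizes, and the deposited TPM was used to compare genes with each other. Levels of the members have a counting error set by 63 to 90543 reads per gene and library. Sequence shared with other genes was counted in 31-base words. Transcript shares and log2 ratios (reads + 1) were compared with exact two-sided permutation tests, in R (version 4.3.3) and Python (version 3.11.15) with scipy (version 1.17.1). Steps were tested on simulated data. The labels number the 3 samples of a genotype as replicates, and the study's methods state that its experiments had 3 or more biological replicates. Deviations from the genotype means had r of 0.002, 0.045 and -0.056 between same-numbered replicates. The highest r with another number was 0.082, -0.020 and 0.038, so only replicate 2 was most alike to its own number. With 3 libraries a genotype, this check cannot exclude that the numbers pair the samples.

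The members and lists were chosen with earlier results of these data known. All 10 members are named. A list gene is named with values if past the cut-off, or if among the 5 smallest p or the 3 highest mean CPM of its list, with the sparse Dlk1-Dio3 genes named in full and most markers given as sums; *Igf1r*, *Insr*, *Airn*, *Gm26945* and *Gm37899* were named after their values were seen. For *H19* and for the sum of *Meg3*, *Rian* and *Mirg*, the 5 genes of 10 or more mean CPM with the highest Pearson r are named. Alternatives were RLE scaling, no filter, 10 or more reads in every library, a transcript length offset, DESeq2 (version 1.42.0) with and without that offset, a replicate block, and leaving out each library.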

Additional observations from a re-analysis of the deposited data

How the results depend on the processing

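Members called stayed at 0 of 10 under all 13 alternatives, with a lowest adjusted p of 0.104 (*H19*, edgeR with no filter on low reads). Over all genes edgeR called 0 of 17152 in the main fit. The count was 157 of 24068 with no filter, 30 of 17152 with DESeq2, and 45 of 17152 with DESeq2 and the length offset. It was 13 with the replicate block, although whether the replicate numbers pair the samples is not known. With 1 library left out it was 1 to 32, the most without Pax7 KR replicate 3. Of the genes of the pathway lists 3 of 103 tested were called with no filter, *Igfbp6*, *Gatm* and *Dcn*, and 0 under the other 12 alternatives. Of the marker, cell cycle, immediate early and sex genes, *Dcn*, *Emcn* and *Mbp* were called with no filter, out of 121 tested. *Xist* was called with DESeq2 and the length offset, *Hba-a1*, *Hba-a2* and *Hbb-bs* with the replicate block and *Egr3* without Pax7 WT replicate 2. The causes were not tested.

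Of 130 member fold changes under alternatives, 118 kept their sign. *Igf2* turned to 0.0505 with the length offset in edgeR and 0.0509 in DESeq2, *Plagl1* to 0.16 in both, and *Igf2r* to 0.0128 and 0.0134. With 1 library left out, *Plagl1* ranged from -0.24 to 0.22, *Igf2* from -0.22 to -0.0224, *Peg3* from -0.10 to -0.0102, *Rian* from -0.0506 to 0.0408 and *Igf2r* from -0.0372 to 0.0262. With TPM the difference in leading transcript share turned to -7.07 percentage points for *Igf2* and 0.0031 for *Meg3*. With 1 library left out it ranged from -0.71 to 2.82 for *Igf2*, -1.03 to 0.0473 for *Meg3*, -4.19 to -1.01 for *Rian*, -3.58 to 1.05 for *Mirg* and -8.77 to 25.9 for *Dlk1*, and the log2 ratio of *Mirg* to *Meg3* differed by -0.0687 to 0.16. Leading shares without overlap between genotypes numbered 1 to 2 of 6, and ratios without overlap 0 to 1 of 4, as libraries were left out. A replicate block could give no transcript share or ratio a p under 0.25, the smallest that 3 pairs allow, so it decides nothing about them.

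Depth limits *Dlk1* most, with 140 reads or fewer in a library, and 3 libraries a genotype leave *H19*, *Dlk1* and *Plagl1* with intervals wider than 1.5-fold.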
